A study of Homo sapiens with 15 samples.

Results

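The 10 heat shock protein genes followed here were the cytosolic chaperones HSPA1A, HSPA1B, HSPA8, HSPH1, DNAJB1, HSPB1 and HSP90AA1, the HSP70 co-chaperone BAG3, and the mitochondrial chaperonins HSPD1 and HSPE1. They were taken from the table by symbol, with no threshold on their values, and all 10 were found among the 25503 genes of the table. RNA sequencing was done on 15 libraries of AsPC-1 and Capan-1, established human pancreatic ductal adenocarcinoma lines. Both lines were transfected with a control siRNA, siNC, or with siRNA that targets B3GNT3 (siB3GNT3), and AsPC-1 also with siRNA that targets B4GALT5 (siB4GALT5). Each of the 5 groups held 3 libraries, the control groups were transfected too, and no label says that replicates came from separate cultures, so p-values measure only the spread between these libraries. B4GALT5 and B3GNT3 encode Golgi glycosyltransferases, and the series concerns their part in MHC class I levels on tumour cells. The labels give no time after transfection and no siRNA sequence, and each group rests on 1 line.

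HSP70 proteins bind unfolded stretches of other proteins and release them in a cycle driven by ATP. J-domain proteins such as DNAJB1 start that cycle by stimulating ATP hydrolysis, and exchange factors such as HSPH1 and BAG3 end it by removing ADP. HSP90 finishes the folding of kinases and receptors, small heat shock proteins such as HSPB1 hold unfolded proteins in solution, and the HSPD1 and HSPE1 chaperonin folds proteins imported into mitochondria. The transcription factor HSF1 binds heat shock elements, repeats of the letters GAA and their complement, in the promoters of many of these genes.

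The promoters are shown because the members differ in this element. Below are the 250 bases before the RefSeq start (GRCh38.p14), 5′ to 3′ on the strand of the gene, for both stress-inducible HSP70 genes, for HSPA8 and HSP90AA1, and for BAG3, whose window held no match. Capitals mark matches to the 2-unit element (GAANNTTC or TTCNNGAA) or the 3-unit element (GAANNTTCNNGAA or TTCNNGAANNTTC), searched on both strands; a 3-unit element holds overlapping 2-unit elements.
HSPA1A, chr6:31815293-31815542, plus strand: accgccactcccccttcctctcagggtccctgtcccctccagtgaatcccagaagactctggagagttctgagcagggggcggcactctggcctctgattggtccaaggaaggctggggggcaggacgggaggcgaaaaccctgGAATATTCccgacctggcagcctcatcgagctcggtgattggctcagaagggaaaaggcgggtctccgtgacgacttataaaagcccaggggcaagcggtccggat
HSPA1B, chr6:31827488-31827737, plus strand: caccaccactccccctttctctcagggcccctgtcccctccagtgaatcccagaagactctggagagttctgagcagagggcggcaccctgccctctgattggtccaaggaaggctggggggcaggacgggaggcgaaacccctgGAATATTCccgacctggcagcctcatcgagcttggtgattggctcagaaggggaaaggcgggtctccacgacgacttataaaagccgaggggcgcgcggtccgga
HSPA8, chr11:123062137-123062386, minus strand: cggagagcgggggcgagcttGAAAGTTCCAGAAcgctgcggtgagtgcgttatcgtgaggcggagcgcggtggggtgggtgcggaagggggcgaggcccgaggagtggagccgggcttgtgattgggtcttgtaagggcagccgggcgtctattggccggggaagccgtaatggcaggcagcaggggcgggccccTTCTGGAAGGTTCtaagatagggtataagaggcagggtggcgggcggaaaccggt
HSP90AA1, chr14:102087045-102087294, minus strand: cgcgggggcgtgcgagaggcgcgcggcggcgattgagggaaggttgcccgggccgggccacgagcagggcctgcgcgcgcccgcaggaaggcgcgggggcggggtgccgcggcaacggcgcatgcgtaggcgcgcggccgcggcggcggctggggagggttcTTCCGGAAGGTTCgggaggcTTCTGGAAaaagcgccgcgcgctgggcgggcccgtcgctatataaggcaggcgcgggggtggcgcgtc
BAG3, chr10:119651130-119651379, plus strand: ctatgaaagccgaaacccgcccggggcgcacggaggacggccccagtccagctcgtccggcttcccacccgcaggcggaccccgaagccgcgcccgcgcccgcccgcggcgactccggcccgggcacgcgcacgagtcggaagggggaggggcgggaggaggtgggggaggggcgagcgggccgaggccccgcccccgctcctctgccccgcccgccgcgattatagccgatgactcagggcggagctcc
At least 1 window of 7 of the 10 genes held a 2-unit element: HSPA1A, HSPA1B, HSPA8, DNAJB1, HSPB1, HSP90AA1 and HSPD1. A 3-unit element occurred in 3 of them, HSPA8, HSP90AA1 and HSPD1. Of 35116 windows of the same length before RefSeq starts, 11.6% held a 2-unit and 0.441% a 3-unit element. The 10 genes had 14 such windows, since some have several starts, and 7 of the 14 held a 2-unit element. No match was found in the windows of HSPH1, HSPE1 and BAG3, which says only that these letters are not in those bases. The HSPD1 matches lay in chr2:197499841-197500090, between an HSPD1 start and the HSPE1 start. They were just outside the HSPE1 window, chr2:197500129-197500378. HSPA1A and HSPA1B each held 1 element, beginning at -106 and -105 from the start, and both held TATAAA, a core promoter sequence found in 6.8% of all windows. Their windows matched at 235 of 251 aligned positions (93.6%).

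HSPA1A and HSPA1B could not be told apart with certainty in these data. Their coding sequences of 1923 bases (GENCODE 29) differ at 4 positions, and the encoded proteins of 641 residues are the same. Of the 100-base words of the HSPA1A transcript, 69.9% also occur in HSPA1B, and the sources used here do not say how reads of such stretches were divided. Each was therefore also followed as the sum of both genes. Among the others, HSPE1 shared 17.0% of its words with other transcripts, mostly with the read-through gene HSPE1-MOB4, which was not used here. HSPB1 shared 5.06%, HSPD1 3.9% and HSP90AA1 2.14% of words, mostly with pseudogenes, and HSPA8, HSPH1, DNAJB1 and BAG3 shared none.

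The siRNA targets were checked first. B4GALT5 stood at 38.7, 35.8 and 35.5 FPKM in AsPC-1 siNC and at 8.7, 8.49 and 8.03 FPKM after siB4GALT5, a fold of 0.25. B3GNT3 stood at 22.5, 23.8 and 23.3 FPKM in AsPC-1 siNC and at 2.53, 2.5 and 24.2 FPKM in the libraries labelled siB3GNT3. The library labelled AsPC-1 siB3GNT3 replicate 3 thus kept its target, and its distance over all genes (root mean square of log2 differences) to the controls was 0.141 to 0.15, against 0.453 to 0.465 to the others of its label. It was set apart, and values for B3GNT3 knockdown in AsPC-1 describe 2 libraries kept because the target was low, with the group as labelled given beside them. In Capan-1, B3GNT3 fell from 13.3, 13.2 and 13.7 FPKM to 1.32, 1.67 and 1.84 FPKM, and replicate 3 of that knockdown lay farther from the other 2 (0.271 to 0.312) than they lay from each other (0.18). Between 10339 and 11531 genes per library reached 1 FPKM, read depth is unknown because FPKM carry no counts, and the 13 mitochondrially encoded mRNAs held 23.8 to 24.8% of all FPKM in AsPC-1 siNC, 18.1 to 20.1% in the AsPC-1 knockdowns kept and 13.6 to 14.8% in Capan-1. Of the 5 epithelial markers, 4 reached 1 FPKM in AsPC-1 (CDH1 did not) and 5 in Capan-1, while 1 of 6 fibroblast, 1 of 6 leukocyte and 0 of 4 endothelial markers did in AsPC-1 and 2, 2 and 1 in Capan-1. CD3E, CD3D, CDH5 and CLDN5 were at 0.074 FPKM or less in every library. Single markers of other cell types were high, the leukocyte marker CD68 at 38.8 to 212 FPKM, the fibroblast markers LUM at 5.63 to 91.8 and COL1A1 at up to 77.6 FPKM, while LYZ reached 2.94 and PECAM1 1.63 FPKM.

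In AsPC-1 most of the heat shock protein genes fell after each knockdown. After siB4GALT5, 7 of the 10 fell and 0 rose, and their median log2 fold change was -0.51 against 0.06 over all genes. Over all 10775 genes tested, 58.2% were called and 23% were called lower (limma on log2(FPKM + 1), adjusted p under 0.05). After siB3GNT3, 7 fell and 0 rose, with a median of -0.38 against 0.07, where 52.9% of all genes were called and 20.4% were called lower. The genes that fell after both were HSPA1A, HSPA1B, HSPA8, HSPH1, HSPB1 and HSPE1. DNAJB1 completed the 7 of siB4GALT5 and BAG3 the 7 of siB3GNT3, while HSP90AA1 and HSPD1 passed in neither. Scaling moved HSPD1 across the threshold in opposite directions, to a rise of 0.14 for siB3GNT3 with a common sum (adjusted p = 0.034, limma) and to -0.15 for siB4GALT5 with median-ratio scaling (adjusted p = 0.0172). Both comparisons share the siNC libraries, so they are not independent. With all libraries as labelled, 7 members were called for siB4GALT5, where 39.2% of all genes passed. For siB3GNT3 as labelled no gene of the table passed (0%, with 3011 genes at an unadjusted p under 0.05), and the adjusted p of HSPA8, HSPH1, HSPE1 and BAG3 was 0.168. After siB4GALT5 the summed level of 5 epithelial markers was 1932.5 to 1948.5 FPKM, against 2021.9 to 2077.4 FPKM in siNC. That of 6 leukocyte markers was 48.5 to 51.5 against 38.9 to 40.6 FPKM. In the AsPC-1 siB3GNT3 group these sums were 1640.5 to 2051.3 and 43.2 to 52.4 FPKM. The part of the marker shifts in the members' values was not tested. Replicate 3 of siB4GALT5 lay farther from the other 2 of its group (0.242 to 0.261) than they lay from each other (0.151). When that replicate was left out, HSP90AA1 passed too for siB4GALT5 (-0.39, adjusted p = 7.38e-05, limma).

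In Capan-1 the response to siB3GNT3 was largest for the HSP70 genes and differed widely between its 3 libraries. HSPA1A, HSPA1B, HSPH1 and HSPD1 fell, 0 of the 10 rose, and the median log2 fold change was -0.3 against 0.02 over all genes. Of the 11493 genes tested, 32.9% were called and 14.2% were called lower. Without replicate 3 of that knockdown, 7 members fell, HSPA8, DNAJB1 and HSP90AA1 being added, where 50.4% of all genes were called. Without any 1 siNC library only HSPA1A of the 10 remained called, a count from which nothing particular to the members is read. The summed level of 5 epithelial markers was 4704.1 to 4931.5 FPKM in Capan-1 siNC and 2979.9 to 3847.5 FPKM after siB3GNT3. That of 6 fibroblast markers was 57.4 to 63.3 and 80.1 to 85.7 FPKM, and that of 6 leukocyte markers 160.0 to 174.0 and 172.0 to 213.0 FPKM, of which 2 each reached 1 FPKM. The part of these shifts in the members' values was not tested, and in bulk RNA fewer cells of a kind and less RNA per cell cannot be told apart.

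**Figure D1:**
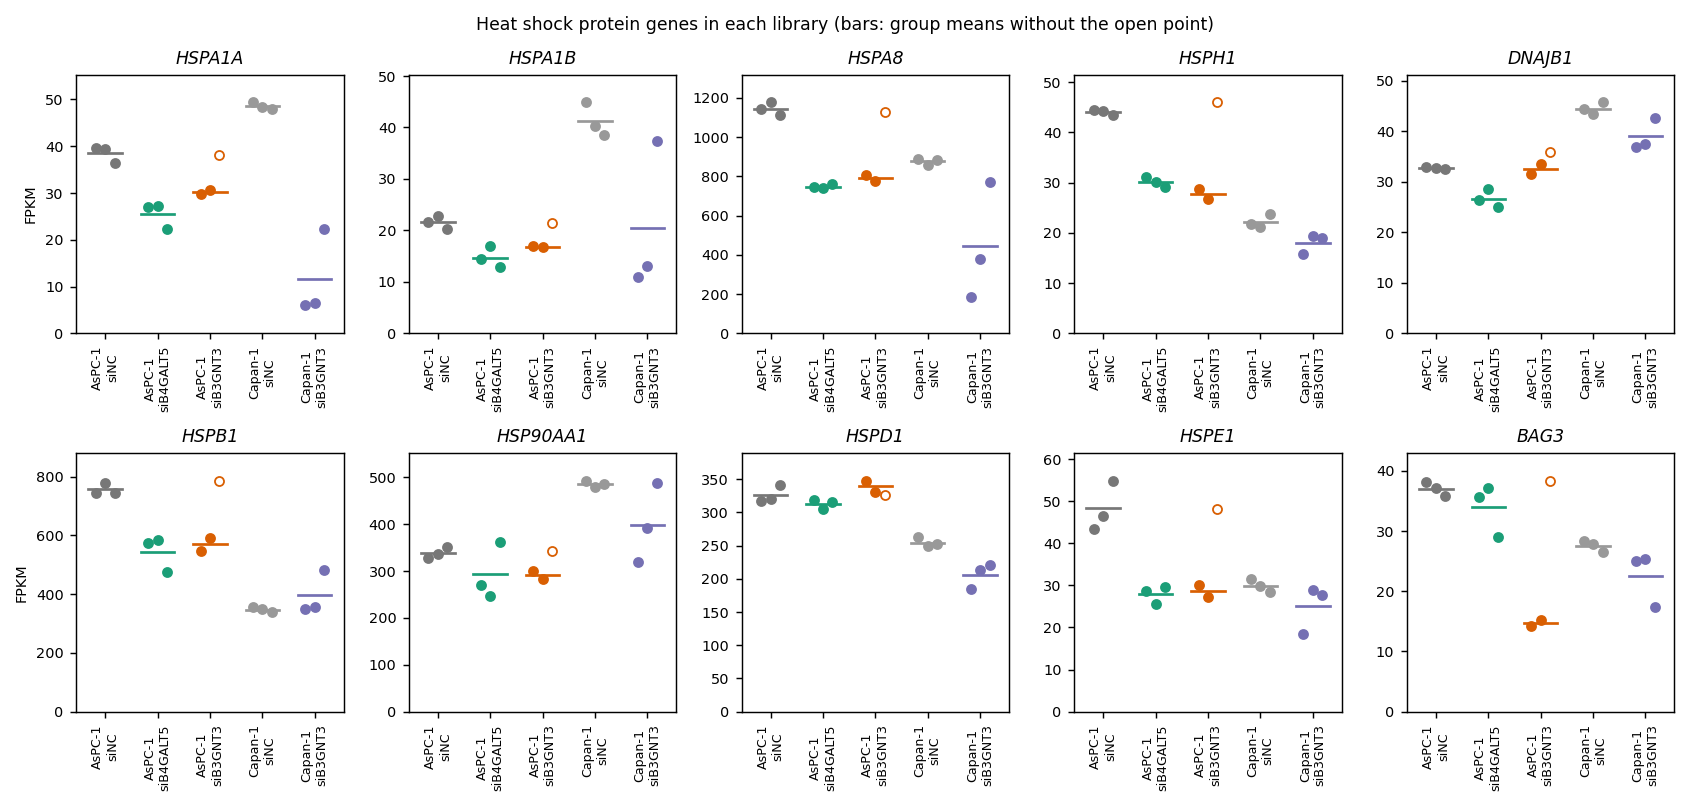
FPKM (vertical axis, linear, from 0) of the 10 heat shock protein genes in the 15 libraries, by group. Points are libraries in the order of replicates 1 to 3, bars are group means, and the open point is the library labelled AsPC-1 siB3GNT3 replicate 3, left out of its mean; HSPA8 in that library stood at 1130.1 FPKM, among the siNC libraries.

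HSPA1A (chr6:31815464-31817946, plus strand, GRCh38 in GENCODE 29) and HSPA1B (chr6:31827735-31830255, plus strand) encode the stress-inducible cytosolic HSP70. In AsPC-1, HSPA1A stood at 39.6, 39.5 and 36.4 FPKM in siNC, at 27.0, 27.3 and 22.3 FPKM after siB4GALT5 and at 29.8 and 30.6 FPKM after siB3GNT3. Every knockdown library was below every siNC library, and the library set apart, at 38.2 FPKM, lay among the siNC libraries. The log2 fold change was -0.58 ± 0.08 (SE, adjusted p = 0.000212, limma) after siB4GALT5 and -0.34 ± 0.09 (adjusted p = 0.00915) after siB3GNT3. HSPA1B stood at 21.6, 22.8 and 20.3 FPKM in siNC, at 14.4, 16.9 and 12.8 FPKM after siB4GALT5 and at 16.9 and 16.8 FPKM after siB3GNT3. It fell by 0.53 (adjusted p = 0.000819, limma) and by 0.33 (adjusted p = 0.0194) on the log2 scale. The call of HSPA1B for siB3GNT3 was lost without siNC replicate 1 or 2 and without either siB3GNT3 library, with an adjusted p of 0.0505 to 0.089 there. The call of HSPA1A was lost without siB3GNT3 replicate 1 (adjusted p = 0.0593).

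In Capan-1 HSPA1A, HSPA8 and HSPA1B had the 3 lowest fold changes of the 10 genes. HSPA1A stood at 49.4, 48.4 and 48.0 FPKM in siNC and at 6.09, 6.46 and 22.3 FPKM after siB3GNT3. All 3 knockdown libraries were below all controls, at 12.5%, 13.3% and 45.8% of the siNC mean. The log2 fold change of -2.21 ± 0.39 (adjusted p = 0.00493, limma) was the third lowest of all 11493 genes tested, and B3GNT3 itself was the lowest. HSPA1B stood at 44.9, 40.3 and 38.6 FPKM in siNC and at 10.9, 13 and 37.4 FPKM after siB3GNT3, a log2 fold change of -1.19 ± 0.38 (adjusted p = 0.0419). Replicates 1 and 2 held 26.4% and 31.5% of the siNC mean of HSPA1B, whereas replicate 3 held 90.5% and was just below the lowest control. The call of HSPA1B was lost when any 1 library other than siB3GNT3 replicate 3 was left out (adjusted p 0.0959 to 0.139).

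Summing both genes sets aside how reads were divided between them. It does not restore reads that may have been left out. Of the HSPA1B words, 72.7% occur in other genes and 68.8% in HSPA1A. In AsPC-1 the summed FPKM stood at 61.3, 62.3 and 56.7 in siNC, at 41.4, 44.2 and 35.2 after siB4GALT5, and at 46.7 and 47.4 after siB3GNT3. In Capan-1 it was 94.3, 88.7 and 86.5 FPKM in siNC and 17.0, 19.5 and 59.6 FPKM after siB3GNT3. The sum fell in all 3 comparisons with siNC, with log2 fold changes of -0.57 (adjusted p = 0.000261, limma), -0.34 (adjusted p = 0.00969) and -1.69 (adjusted p = 0.0134) in that order.

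HSPA8 (chr11:123057489-123063230, minus strand) encodes the constitutive cytosolic HSP70, and it had the highest mean FPKM of the 10 genes in all 5 groups. In AsPC-1 it stood at 1144.5, 1178.1 and 1115.5 FPKM in siNC, at 744, 739 and 760 FPKM after siB4GALT5, and at 805 and 778 FPKM after siB3GNT3. The groups did not overlap, and the spread within each was small beside the difference. HSPA8 fell by 0.62 (SE 0.04, adjusted p = 1.99e-06, limma) and by 0.53 (SE 0.04, adjusted p = 1.18e-05) on the log2 scale. In Capan-1 it stood at 891, 859 and 886 FPKM in siNC and at 187, 380 and 771 FPKM after siB3GNT3. All 3 knockdown libraries were below the controls, but they ran from 21.3% to 87.8% of the siNC mean, and in replicates 1 and 2 HSPA8 was below HSP90AA1. The log2 fold change of -1.21 (95% interval -2.16 to -0.26) missed the threshold (adjusted p = 0.0544, limma), and without replicate 3 it was -1.72 (adjusted p = 0.00023). HSPA8 passed as a contrast from the model of both lines (adjusted p = 0.00959, limma), and it passed at -1.26 under scaling by median ratios (adjusted p = 0.0457).

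The members differed in which Capan-1 knockdown library was high. B3GNT3 was at 9.86%, 12.4% and 13.7% of the siNC mean in replicates 1, 2 and 3. HSPA8, HSPA1A, HSPA1B, DNAJB1, HSP90AA1 and HSPD1 were lowest in replicate 1 and highest in replicate 3. BAG3 went the other way, at 91.0%, 91.7% and 63.3%, and HSPB1 stood at 101%, 103% and 138%.

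**Figure D2:**
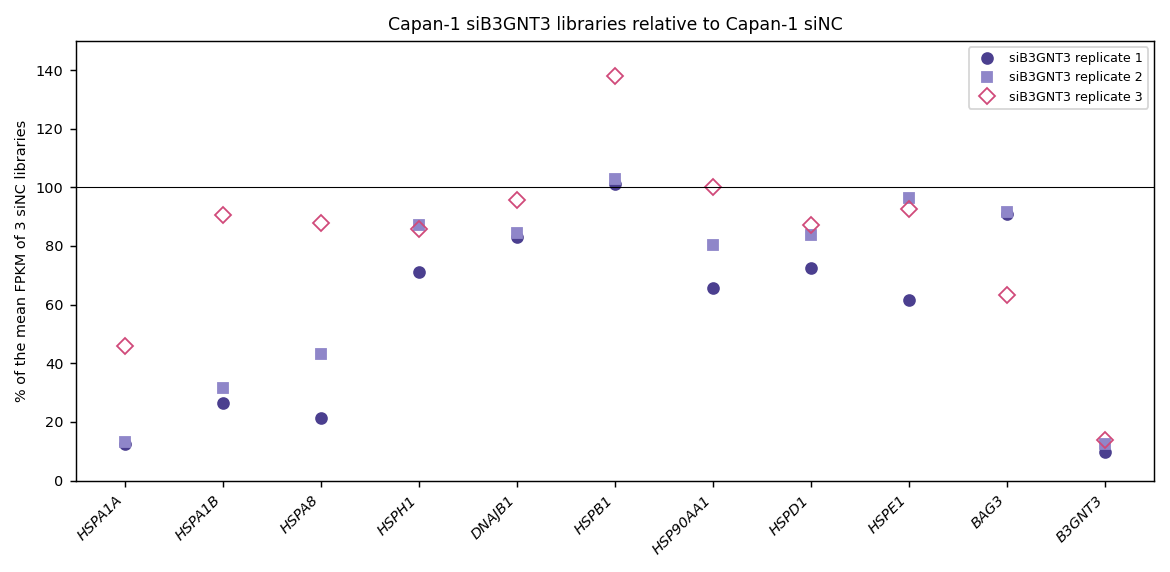
Level of each heat shock protein gene and of the target B3GNT3 in the 3 Capan-1 siB3GNT3 libraries, as a percentage of the mean FPKM of the 3 Capan-1 siNC libraries (line at 100). HSPA8 stood at 21.3%, 43.2% and 87.8%, while B3GNT3 stood between 9.86% and 13.7%.

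HSPH1 (chr13:31134974-31162388, minus strand) encodes HSP110, which exchanges the nucleotide of HSP70. In AsPC-1 it stood at 44.4, 44.2 and 43.4 FPKM in siNC, at 31.1, 30.1 and 29.1 FPKM after siB4GALT5, and at 28.7 and 26.7 FPKM after siB3GNT3. Controls and knockdowns were separated by over 10 FPKM, and the library set apart stood at 46.0 FPKM. HSPH1 fell by 0.53 (SE 0.05, adjusted p = 2.38e-05, limma) and by 0.65 (SE 0.06, adjusted p = 1.89e-05) on the log2 scale. In Capan-1 it stood at 21.7, 21.1 and 23.7 FPKM in siNC and at 15.8, 19.3 and 19.0 FPKM after siB3GNT3. The groups did not overlap and the change was small, -0.29 ± 0.09 (adjusted p = 0.0443, limma). That call was lost without any 1 library other than siB3GNT3 replicate 3 (adjusted p 0.0545 to 0.162), and with rescaling to a common sum (adjusted p = 0.0576).

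DNAJB1 (chr19:14514770-14529770, minus strand) encodes the J-domain partner HSP40, and it differed between the AsPC-1 knockdowns. It stood at 32.9, 32.6 and 32.5 FPKM in AsPC-1 siNC, at 26.3, 28.5 and 24.9 FPKM after siB4GALT5, and at 31.5 and 33.4 FPKM after siB3GNT3. The siB3GNT3 libraries lay on both sides of the controls and the siB4GALT5 libraries below all of them. DNAJB1 fell by 0.29 (SE 0.06, adjusted p = 0.00216, limma) after siB4GALT5, and its value for siB3GNT3 was -0.01 (95% interval -0.16 to 0.14, adjusted p = 0.893). In Capan-1 it stood at 44.3, 43.3 and 45.7 FPKM in siNC and at 36.9, 37.5 and 42.5 FPKM after siB3GNT3. The log2 fold change of -0.19 missed the threshold (adjusted p = 0.0803, limma), and DNAJB1 passed as a contrast from the model of both lines (adjusted p = 0.0357) and at -0.23 under scaling by median ratios (adjusted p = 0.0338).

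BAG3 (chr10:119651370-119677819, plus strand) encodes a co-chaperone that links HSP70 to small heat shock proteins and to autophagy of damaged proteins. In AsPC-1 it stood at 38.2, 37.1 and 35.9 FPKM in siNC, at 35.6, 37.2 and 29 FPKM after siB4GALT5, and at 14.2 and 15.3 FPKM after siB3GNT3. The siB4GALT5 libraries overlapped the controls, and the siB3GNT3 libraries were far below both, at 38.3% and 41.3% of the siNC mean. The log2 fold change after siB3GNT3 was -1.27 ± 0.1 (adjusted p = 9.41e-06, limma), and 0.473% of the 10775 genes had a lower one. After siB4GALT5 it was -0.13 (95% interval -0.33 to 0.06, adjusted p = 0.219). In Capan-1 BAG3 stood at 28.4, 27.8 and 26.5 FPKM in siNC and at 25.1, 25.3 and 17.4 FPKM after siB3GNT3, a log2 fold change of -0.29 that missed the threshold (adjusted p = 0.121, limma). The library labelled AsPC-1 siB3GNT3 replicate 3 stood at 38.4 FPKM, above all AsPC-1 controls, so the group as labelled gave -0.83 for BAG3 with an SE of 0.31.

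HSP90AA1 (chr14:102080738-102139699, minus strand) encodes the inducible cytosolic HSP90. In AsPC-1 it stood at 328, 337 and 351 FPKM in siNC, at 270, 247 and 362 FPKM after siB4GALT5, and at 301 and 283 FPKM after siB3GNT3. Replicate 3 of siB4GALT5 was above all controls and the other 2 were below them. The log2 fold change after siB4GALT5 was -0.23 (adjusted p = 0.125, limma), and without that replicate it was -0.39 (adjusted p = 7.38e-05). After siB3GNT3 it was -0.21 (adjusted p = 0.197, limma), and with the 2 groups compared fitted alone the same value had an adjusted p of 0.00235. In Capan-1 HSP90AA1 stood at 493, 479 and 486 FPKM in siNC and at 319, 391 and 487 FPKM after siB3GNT3. Replicate 3 lay among the controls, and the log2 fold change of -0.31 missed the threshold (adjusted p = 0.11, limma).

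HSPB1 (chr7:76302544-76304295, plus strand) encodes the small heat shock protein HSP27. In AsPC-1 it stood at 746, 779 and 746 FPKM in siNC, at 574, 583 and 474 FPKM after siB4GALT5, and at 547 and 592 FPKM after siB3GNT3. No knockdown library kept reached the controls, and the library set apart stood at 787 FPKM. HSPB1 fell by 0.48 (SE 0.08, adjusted p = 0.000522, limma) and by 0.41 (SE 0.08, adjusted p = 0.00293) on the log2 scale. In Capan-1 it stood at 357, 348 and 338 FPKM in siNC and at 351, 358 and 481 FPKM after siB3GNT3. There the groups overlapped, the value was 0.17 (95% interval -0.09 to 0.44, adjusted p = 0.272, limma), and replicate 3 was the high library.

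HSPD1 (chr2:197486581-197516737, minus strand) and HSPE1 (chr2:197499994-197503457, plus strand) encode HSP60 and its HSP10 lid, which work together in the mitochondrial matrix. By RefSeq the genes stand head to head, with starts 105 bases apart at the nearest and 539 bases for another HSPD1 start. By the GENCODE 29 spans given here, HSPE1 lies within HSPD1 on the opposite strand. Strandedness is not known, and how reads of the shared stretch were assigned was not tested. In AsPC-1 HSPD1 stood at 317, 320 and 342 FPKM in siNC, at 318, 305 and 315 FPKM after siB4GALT5, and at 348 and 331 FPKM after siB3GNT3. Both knockdowns overlapped the controls, with log2 fold changes of -0.06 (95% interval -0.16 to 0.04) and 0.06 (95% interval -0.06 to 0.17), neither past the threshold (adjusted p = 0.275 and 0.386, limma). HSPE1 stood at 43.4, 46.5 and 54.9 FPKM in siNC, at 28.6, 25.6 and 29.6 FPKM after siB4GALT5, and at 30.0 and 27.3 FPKM after siB3GNT3. Each knockdown library of HSPE1 was below the controls. HSPE1 fell by 0.76 (SE 0.09, adjusted p = 9.87e-05, limma) and by 0.73 (SE 0.1, adjusted p = 0.000329), and 2.61% and 3.33% of all genes tested had lower values.

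In Capan-1 HSPD1 fell instead. It stood at 263, 249 and 252 FPKM in siNC and at 184, 213 and 221 FPKM after siB3GNT3, without overlap, a log2 fold change of -0.31 ± 0.08 (adjusted p = 0.0188, limma). That call was lost without any 1 siNC library (adjusted p 0.059 to 0.0793). HSPE1 stood at 31.4, 29.9 and 28.5 FPKM in Capan-1 siNC and at 18.5, 28.9 and 27.7 FPKM after siB3GNT3. Replicate 1 alone was far below the controls, and the log2 fold change was -0.27 (95% interval -0.62 to 0.07, adjusted p = 0.196, limma).

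**Figure D3:**
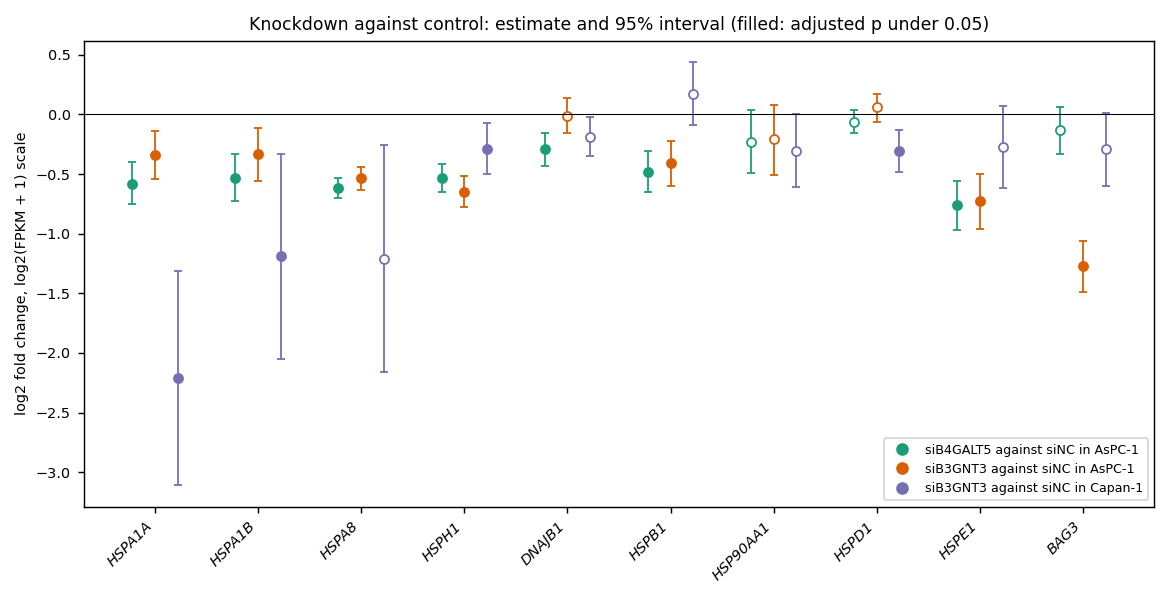
Log2 fold change against siNC, on the log2(FPKM + 1) scale, of the 10 heat shock protein genes for siB4GALT5 and siB3GNT3 in AsPC-1 and siB3GNT3 in Capan-1. Points are limma estimates, lines 95% intervals, and filled points passed an adjusted p of 0.05; BAG3 stood at -0.13, -1.27 and -0.29 and HSPA1A at -0.58, -0.34 and -2.21.

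Both AsPC-1 knockdowns were compared directly, which asks whether levels differed between libraries given siB4GALT5 and those given siB3GNT3. Of the 10 genes, 2 differed, where 35.2% of all 10775 genes were called. BAG3 was 1.14 ± 0.1 higher on the log2 scale after siB4GALT5 than after siB3GNT3 (adjusted p = 3.51e-05, limma), 2.21-fold, and 99.3% of all genes had a lower value. DNAJB1 was lower after siB4GALT5 by the log2 value -0.28 ± 0.07 (adjusted p = 0.00953, limma). For HSPA8 the difference was -0.08 (95% interval -0.18 to 0.01), for HSPH1 0.12 (95% interval -0.01 to 0.24) and for HSPE1 -0.04 (95% interval -0.26 to 0.19), and none of these passed. Of the genes that did not pass, HSPA1A was nearest the threshold, at -0.24 (95% interval -0.43 to -0.04, adjusted p = 0.062, limma). It passed with a common sum (adjusted p = 0.0493, limma), with or without the mitochondrially encoded mRNAs (0.0401 without), and without siB4GALT5 replicate 2 (0.0443). HSPA1B also passed without that replicate (-0.3, adjusted p = 0.0245), and HSPH1 (0.14, adjusted p = 0.0485) and HSP90AA1 (-0.18, adjusted p = 0.0254) passed without siB4GALT5 replicate 3. The call of DNAJB1 was lost without AsPC-1 siB3GNT3 replicate 2 (adjusted p = 0.087), and that of BAG3 with all libraries as labelled (0.7, adjusted p = 0.149).

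The response to siB3GNT3 differed between the lines for 5 of the 10 genes, where 32.8% of all 12236 genes were called in the same test. For HSPA1A the log2 fold change in Capan-1 minus that in AsPC-1 was -1.87 ± 0.47 (adjusted p = 0.008, limma), the fall being deeper in Capan-1. HSPA1B, which shares reads with HSPA1A, stood at -0.85 ± 0.45 and did not pass (adjusted p = 0.166). Their sum stood at -1.35 ± 0.47 (adjusted p = 0.0404). BAG3 had the opposite sign, 0.98 ± 0.18 (adjusted p = 0.00114), since it fell in AsPC-1. The difference was 0.59 for HSPB1 (adjusted p = 0.0118, limma), called lower in AsPC-1 only, and 0.36 for HSPH1 (adjusted p = 0.0215), whose fall was smaller in Capan-1. It was -0.36 for HSPD1 (adjusted p = 0.0106), called lower in Capan-1 only. Without AsPC-1 siB3GNT3 replicate 1 the calls of HSPB1 and HSPD1 were lost (adjusted p = 0.0574 and 0.055, limma). That of HSPH1 was lost without replicate 2 of AsPC-1 siB3GNT3, Capan-1 siNC or Capan-1 siB3GNT3 (adjusted p = 0.103, 0.0538 and 0.0508). For HSPA8 the difference was -0.67 with a wide 95% interval of -1.72 to 0.37, and for HSPE1 it was 0.45 (95% interval 0.02 to 0.89, adjusted p = 0.103, limma). Without Capan-1 siB3GNT3 replicate 3, 8 of the 10 differed (41.4% of all genes), with HSPA8 at -1.18 (adjusted p = 0.00397) and HSPA1B at -1.38 (adjusted p = 2.05e-05). As labelled, 2 of the 10 differed (9.83% of all genes), and BAG3 stood at 0.54 (adjusted p = 0.388).

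The control cells of both lines also differed in chaperone levels, as 78.1% of all genes tested did. In this comparison line and any difference in culture or library preparation cannot be told apart. FPKM, which are per length, ranked HSPA8 highest in AsPC-1 siNC, at 1146.0 ± 31.3 (SD, n = 3), then HSPB1 at 757.0 ± 18.8. HSP90AA1 (339.0 ± 11.7) and HSPD1 (327.0 ± 13.7) followed and overlapped. HSPE1 (48.3 ± 5.95) overlapped HSPH1 (44.0 ± 0.503), HSPA1A (38.5 ± 1.81) overlapped BAG3 (37.1 ± 1.16), and DNAJB1 (32.7 ± 0.234) and HSPA1B (21.6 ± 1.27) were lowest, apart from each other. In Capan-1 siNC HSPA8 was again highest, at 879.0 ± 17.2, then HSP90AA1 (486.0 ± 6.96), HSPB1 (348.0 ± 9.3) and HSPD1 (255.0 ± 7.68), each apart from its neighbour. HSPA1A (48.6 ± 0.741) came next, DNAJB1 (44.4 ± 1.18) and HSPA1B (41.3 ± 3.29) overlapped, and HSPE1 (29.9 ± 1.46), BAG3 (27.6 ± 0.923) and HSPH1 (22.1 ± 1.37) were lowest.

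Of the 10 genes, 8 differed between the siNC groups, a count near the share over all 12236 genes, of which 78.1% were called. HSPA1B (0.9 ± 0.3, adjusted p = 0.0135, limma), DNAJB1 (0.43, adjusted p = 2.92e-05) and HSP90AA1 (0.52, adjusted p = 0.00348) were higher in Capan-1. The sum of HSPA1A and HSPA1B, which share reads, did not pass in the fit of all 14 libraries (0.57 ± 0.31, adjusted p = 0.107, limma). The spread of that fit includes the Capan-1 knockdown. The summed siNC levels themselves did not overlap, at 56.7 to 62.3 FPKM in AsPC-1 and 86.5 to 94.3 FPKM in Capan-1. HSPB1 (-1.12), HSPH1 (-0.96), HSPE1 (-0.67), BAG3 (-0.42) and HSPD1 (-0.36) were lower there, with adjusted p from 2.45e-08 to 0.00593 (limma). HSPA8 (-0.38) and HSPA1A (0.33) did not pass in the fit of all 14 libraries, whose spread includes the Capan-1 knockdown, and passed when the siNC groups were fitted alone (adjusted p = 1.54e-06 and 3.79e-05). With rescaling to a common sum the all-gene median of this comparison was 0.227 in place of 0.088, and BAG3 stood at -0.25 (adjusted p = 0.0714).

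Other genes of the chaperone system moved unevenly, in lists chosen with earlier results known. Their counts stand against 35.2% of all genes called higher and 23% lower after siB4GALT5, 32.5% and 20.4% after siB3GNT3 in AsPC-1, and 18.7% and 14.2% in Capan-1, and nothing particular to a list is read from them. HSF1, the main heat shock transcription factor, rose in all 3 comparisons with siNC, from 57.6 ± 1.4 (SD, n = 3) to 68.4 ± 6.37 FPKM (n = 3) after siB4GALT5 and 78.0 ± 2.72 FPKM (n = 2) after siB3GNT3 in AsPC-1, and from 21.7 ± 1.07 to 26.6 ± 1.98 FPKM (n = 3 each) in Capan-1. Its log2 fold changes were 0.24, 0.43 and 0.28 (adjusted p = 0.0132, 0.00123 and 0.0244, limma). Of the list of HSF1 and 7 regulators, 5 rose and 2 fell after siB4GALT5, 4 rose and 2 fell after siB3GNT3 in AsPC-1, and 2 rose and 0 fell in Capan-1. HSBP1, which binds HSF1, fell in AsPC-1 (-0.31 and -0.41). IER5, which aids HSF1 dephosphorylation, rose there after siB4GALT5 (0.42, adjusted p = 0.000726, limma) and after siB3GNT3 (0.38, adjusted p = 0.00281).

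Among the other HSP70 and HSP110 relatives, 7 of 9 found in the table were tested. In AsPC-1, 2 rose and 2 fell after siB4GALT5, and 1 rose and 4 fell after siB3GNT3. In Capan-1, 1 rose and 4 fell. HSPA13, an HSP70 of microsomes, rose in AsPC-1 (0.8 and 0.46). HSPA4L, a relative of HSPH1, fell after siB4GALT5 (-0.63, adjusted p = 3.11e-05, limma). It also fell after siB3GNT3, in AsPC-1 (-0.25, adjusted p = 0.0145) and in Capan-1 (-0.35, adjusted p = 0.017). HSPA2, an HSP70 abundant in testis, fell in Capan-1 from 9.98 ± 0.188 to 3.23 ± 2.02 FPKM (SD, n = 3 each), a log2 fold change of -1.48 (adjusted p = 0.00568, limma). In AsPC-1 HSPA2 was -0.42 after siB3GNT3 (adjusted p = 0.0478) and -0.03 after siB4GALT5 (adjusted p = 0.888). HSPA6, the strictly stress-inducible HSP70, was below the filter, with group means of 0.0146 to 0.422 FPKM. HSPA9, the mitochondrial HSP70, rose after siB4GALT5 (0.28, adjusted p = 0.00038, limma), and its values after siB3GNT3 were 0.11 in AsPC-1 and 0.02 in Capan-1 (adjusted p = 0.0742 and 0.892).

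Of 11 J-domain proteins, 5 rose and 1 fell after either AsPC-1 knockdown, and 0 rose and 3 fell in Capan-1, shares called near those of all genes (58.2%, 52.9% and 32.9%). DNAJB2, a J-domain protein known for its neuronal form, rose in AsPC-1 by 0.87 after siB4GALT5 and 0.72 after siB3GNT3, and DNAJA2 rose by 0.44 and 0.36 there and was -0.3 in Capan-1 (adjusted p = 0.00922, limma). Of HSP90 and its 12 co-chaperones, 2 rose and 5 fell, 1 rose and 5 fell, and 1 rose and 5 fell, in the order siB4GALT5, siB3GNT3 in AsPC-1 and siB3GNT3 in Capan-1. HSP90AB1, the constitutive HSP90, fell in all 3, by 0.37, 0.31 and 0.32 on the log2 scale (adjusted p = 4.49e-05, 0.000335 and 0.0139, limma). STIP1, which joins HSP70 to HSP90, fell by 0.34, 0.37 and 0.72 in the same order. CDC37, which brings kinases to HSP90, fell by 0.76 in Capan-1 (adjusted p = 0.00109, limma). In AsPC-1 CDC37 was -0.17 after siB3GNT3 (adjusted p = 0.0141) and 0.07 after siB4GALT5 (adjusted p = 0.17).

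Of 8 other small heat shock proteins, 2 passed the filter, HSPB8 and HSPB11. HSPB8, the partner of BAG3, stood at 0.181 ± 0.139 FPKM in AsPC-1 siNC, 1.55 ± 0.0907 after siB4GALT5 (SD, n = 3 each) and 0.838 ± 0.254 after siB3GNT3 (n = 2), log2 differences of 1.11 and 0.64. It passed the filter of 1 FPKM in AsPC-1 only through the knockdown libraries, which fixed that direction, so these are a description with no test. In Capan-1 HSPB8 fell from 5.69 ± 0.327 to 1.93 ± 0.252 FPKM (SD, n = 3 each), a log2 fold change of -1.2 (adjusted p = 0.00014, limma). Of 5 BAG proteins other than BAG3, 2 rose and 1 fell after siB4GALT5, 1 rose and 1 fell after siB3GNT3 in AsPC-1, and 0 rose and 1 fell in Capan-1. BAG1 rose by 0.61 and 0.35 in AsPC-1, and BAG2, an inhibitor of the ubiquitin ligase STUB1, was lower there (-0.33 and -0.28). Of 8 subunits of TRiC, the cytosolic chaperonin for actin and tubulin, 1 rose and 3 fell, 2 rose and 6 fell, and 0 rose and 4 fell in the 3 comparisons, none by more than 0.36.

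Of 12 mitochondrial chaperones and proteases, 6 rose and 1 fell after siB4GALT5, 5 rose and 1 fell after siB3GNT3 in AsPC-1, and 2 rose and 1 fell in Capan-1, where 58.2%, 52.9% and 32.9% of all genes were called. LONP1, a protease of the mitochondrial matrix, rose by 1.15 and 1.76 in AsPC-1 (adjusted p = 1.91e-06 and 7.22e-07, limma), while HSPE1 fell there. GRPEL2, an exchange factor of mitochondrial HSP70, rose by 1.1, 1.07 and, in Capan-1, 0.79. Of 15 endoplasmic reticulum chaperones, 7 rose and 4 fell after siB4GALT5, 6 rose and 4 fell after siB3GNT3 in AsPC-1, and 1 rose and 8 fell in Capan-1. HSPA5, the endoplasmic reticulum HSP70, rose in AsPC-1 from 185.0 ± 1.31 (SD, n = 3) to 301.0 ± 12.0 (n = 3) and 324.0 ± 0.0286 FPKM (n = 2), by 0.7 and 0.81 (adjusted p = 1.65e-06 and 2.29e-06, limma). In Capan-1 HSPA5 was at 265.0 ± 8.72 in siNC and 230.0 ± 31.8 FPKM (SD, n = 3 each) after siB3GNT3, and -0.21 missed the threshold (adjusted p = 0.122, limma). The difference between lines for HSPA5 was -1.02 (adjusted p = 2.68e-05, limma). Of the 15 genes of that list, 10 had a lower response in Capan-1 and 1 a higher one. In that test 32.8% of all 12236 genes were called in either direction.

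**Figure D4:**
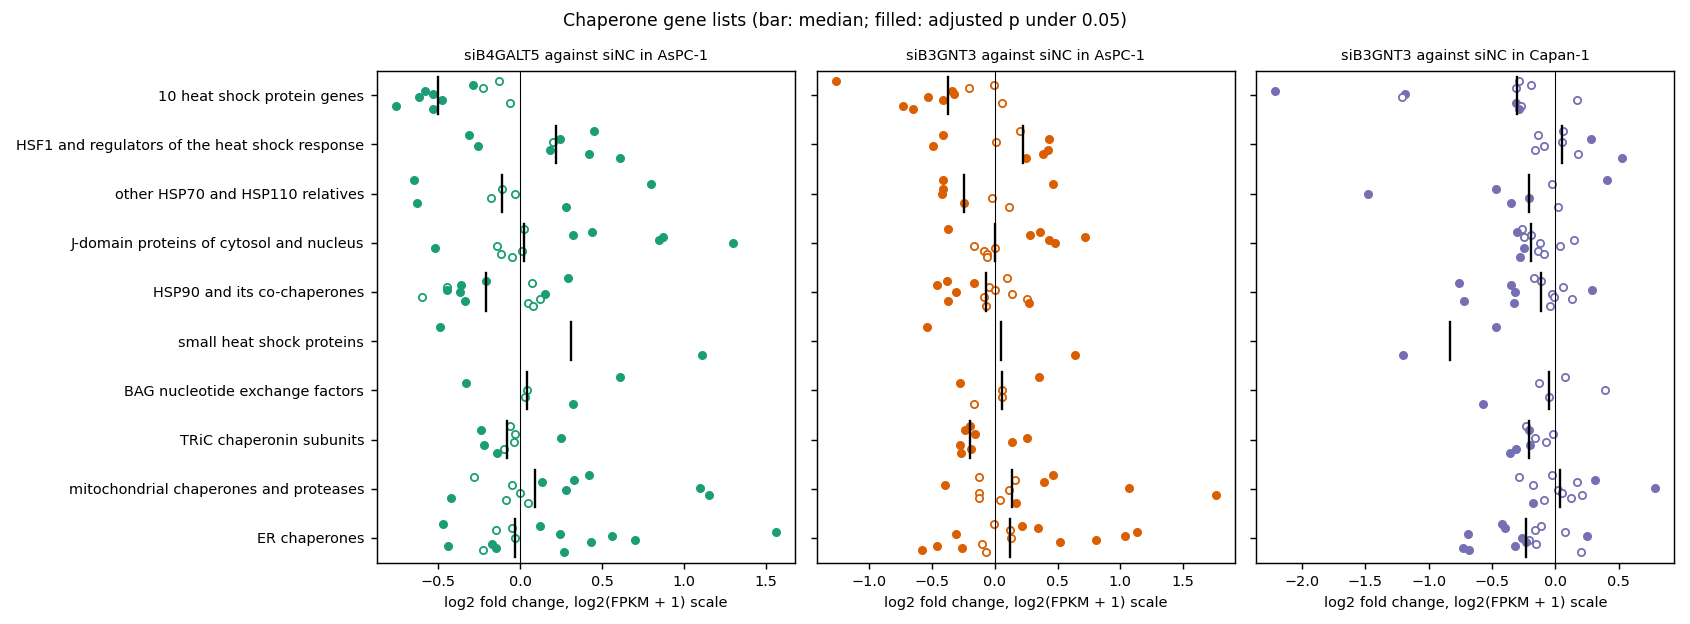
Log2 fold change (horizontal axis, log2(FPKM + 1) scale) of each tested gene of the 10 heat shock protein genes and of 9 other chaperone lists, for siB4GALT5 and siB3GNT3 in AsPC-1 and siB3GNT3 in Capan-1. Filled points passed an adjusted p of 0.05 and bars are list medians; the 10 genes had medians of -0.51, -0.38 and -0.3.

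The members did not vary together as 1 block. Over the 14 libraries, with each line's siNC mean subtracted on the log2 scale, Pearson r was 0.95 for HSPA1A with HSPA1B, which share reads, 0.89 for HSPA1A with HSPA8 and 0.89 for HSPA1A with HSPD1. A separate pair was HSPH1 and HSPE1, at 0.93. BAG3 stood at 0.01 with HSPA1A, 0.1 with HSPA8 and 0.63 with HSPH1, and HSPD1 with HSPE1, the chaperonin partners, at 0.16. These values are a description over libraries that share groups and, for each line, controls.

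Of 8720 genes ranked by the same measure, those most like HSPA1A were WDR6 (r = 0.988), AP1G1 (0.982) and SDF2 (0.98), and those most like HSPA1B were DDT (0.966), SNRNP70 (0.965) and RPL24 (0.958). RBMX (0.971), CDCA2 (0.971) and POLR2B (0.969) were most like HSPA8. ARPC5 (0.982), GOT2 (0.978) and PSMB3 (0.974) were most like HSPH1, and MFAP1 (0.951), RAB5C (0.947) and ABCD3 (0.945) most like DNAJB1. BAG3 was closest to MAP2K1 (0.981), ARF3 (0.978) and TGM2 (0.974), HSPB1 to PEBP1 (0.971), DNM1 (0.97) and TUBB3 (0.958), and HSP90AA1 to NUSAP1 (0.944), HNRNPK (0.924) and OPA1 (0.923). PRPS1 (0.964), SLC25A5 (0.959) and C1orf216 (0.956) were most like HSPD1, and ATP5MC3 (0.968), CDK1 (0.964) and PCNA (0.958) most like HSPE1. No member was among the 3 closest genes of another, HSPA1A and HSPA1B included.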

How the data were processed

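The authors deposited 1 table of FPKM, gene by library, for the 15 libraries. Per the submitters' processing notes, Bowtie2, RSEM 1.3.1, DESeq2 1.4.5 and GRCh38 were used, with no role given. The annotation, strandedness and read depth are not given in the sources used here.

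FPKM were used as deposited. Genes with at least 1 FPKM in at least 3 libraries of a fit were tested on log2(FPKM + 1) with limma 3.58.1 (R 4.3.3), an intensity trend and Benjamini-Hochberg adjustment over all genes tested, two-sided, at an adjusted p under 0.05. All 10 members passed the filter. A fold change on this scale understates that of low genes. Separate fits held the 8 AsPC-1 libraries kept, the 6 Capan-1 libraries, and, for comparisons between lines, all 14. Titles give replicate numbers. Same-numbered libraries had r of -0.067 to 0.07, within the -0.144 to 0.119 of the other pairs, so they were not paired. For AsPC-1 siNC with siB4GALT5, same-numbered pairs (0.033 to 0.07) were above the others (-0.049 to 0.008). Some library names carry other numbers than the titles, and pairing by those was not tested.

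The members and the 9 lists (90 names, 89 in the table) were chosen with earlier results of these data known. All members and both targets are named, from each list up to 3 called genes of smallest p per comparison, and HSF1, HSPA5, HSPA9, HSP90AB1 and HSPA6 always; not every gene so picked is described. For each member the 3 genes of highest r are named, among genes with a group mean of at least 5 FPKM. Promoter and transcript sequences came from RefSeq (GRCh38.p14) and GENCODE 29, read in Python 3.11.15, and all 10 members matched. The model was tested on simulated data. Alternatives were pseudocount 0.1, no filter, a filter of 5 FPKM, 3 rescalings, no trend, a replicate block, each library left out, HSPA1A and HSPA1B summed, all libraries as labelled, and fits of fewer or more groups.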

Additional observations from a re-analysis of the deposited data

Results flagged for a closer look

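The response to siB3GNT3 differed between Capan-1 and AsPC-1 for 5 of the 10 genes by the test of the difference itself (limma, adjusted over 12236 genes, 32.8% of which were called), with AsPC-1 siB3GNT3 replicate 3 set apart. The Capan-1 minus AsPC-1 difference in log2 fold change was -1.87 for HSPA1A (adjusted p = 0.008), with all 3 Capan-1 and both kept AsPC-1 knockdown libraries below their controls. It was -0.85 for HSPA1B, which shares reads with HSPA1A, and did not pass (adjusted p = 0.166). For the sum of both genes it was -1.35 (adjusted p = 0.0404). It was 0.98 for BAG3 (adjusted p = 0.00114), 0.59 for HSPB1 (adjusted p = 0.0118), 0.36 for HSPH1 (adjusted p = 0.0215) and -0.36 for HSPD1 (adjusted p = 0.0106). With all libraries as labelled, BAG3 (0.54), HSPB1 (0.43) and HSPH1 (0.13) no longer passed (adjusted p = 0.388, 0.173 and 0.742).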

How the results depend on the processing

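Of 1208 values of single genes (the 10 members and both targets) under the alternatives, 1137 kept their side of the threshold. Of the rest, 44 lost a call and 27 gained one, and 0 of the called ones reversed. Direction was not compared for values called neither in the main fit nor in the alternative. With all libraries as labelled the members called went from 7 to 0 for siB3GNT3 in AsPC-1, from 2 to 1 between the AsPC-1 knockdowns and from 5 to 2 between lines, the spread then including a library with its target kept. Without a filter the count in Capan-1 went from 4 to 1, with 22473 genes tested. Leaving out 1 library gave 1 to 4 members between the AsPC-1 knockdowns (4 without siB4GALT5 replicate 2 or 3, 1 without siB3GNT3 replicate 2), 1 to 7 in Capan-1 (1 without any siNC library, 2 without siB3GNT3 replicate 1 or 2, 7 without replicate 3) and 3 to 8 between lines (3 without AsPC-1 siB3GNT3 replicate 1, 8 without Capan-1 siB3GNT3 replicate 3). The share of all genes called also moved between fits, from 32.9% to 50.4% in Capan-1 without siB3GNT3 replicate 3. Nothing particular to the members is read from these counts. The fit with a replicate block called 5 members in Capan-1, HSPA8 being added (adjusted p = 0.0301, limma). It changed no other call of a member. The share of called genes that were higher was 60.5% for siB4GALT5, 49.1% with median-ratio scaling and 70.9% with a common sum. For siB3GNT3 in AsPC-1 these shares were 61.5%, 46.7% and 72.2%, in Capan-1 56.8%, 46.1% and 63.6%, and between lines 42.2%, 53% and 36.1%. With median-ratio scaling HSP90AA1 and HSPD1 passed too for siB4GALT5 (-0.31 and -0.15). Depth limits cannot be given, since FPKM carry no counts.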
